A study of Mus musculus with 4 samples.

Results

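Loss of Ets2 in fibroblasts of PyMT mammary tumors was examined by comparing the PyMT Ets2-null array with the PyMT Ets2-present array, 2 of the 4 arrays of the series. Both hold RNA of cultured mammary fibroblasts from female FVB/N mice aged 9 weeks that carried the MMTV-PyMT oncogene, a viral middle T antigen expressed from a promoter of mammary epithelium. The Ets2-present fibroblasts had the genotype PyMT;Ets2db/loxP and the Ets2-null fibroblasts PyMT;Fsp-cre;Ets2db/loxP. All animals of the series, controls included, thus carried the db allele, a conventional knockout of the DNA-binding domain, beside a loxP allele that remained functional without Cre. Fsp-cre expresses Cre recombinase from the promoter of Fsp1, the S100a4 gene, and the transgene was present in the Ets2-null animals and absent from the Ets2-present ones, so that its presence and the loss of Ets2 cannot be told apart. The remaining 2 arrays hold fibroblasts of the genotypes Ets2db/loxP and Fsp-cre;Ets2db/loxP without the oncogene, and they serve here as normal reference levels. Each group has 1 array (n = 1), so the differences below have no replicate check, no error and no p-value.

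Ets2 is a transcription factor of the ETS family, which binds DNA at sites with a GGAA core, often beside sites of AP-1, the dimer of Fos and Jun proteins. Ras and MAP kinase signalling phosphorylates Ets2 and raises its activity, and several metalloproteinase genes are known targets of ETS and AP-1 factors together. Fibroblasts of the tumor stroma make and degrade the extracellular matrix and secrete growth factors, chemokines and Wnt and TGF-beta family proteins that act on the neighbouring epithelium, vessels and immune cells.

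All levels are log2 RMA values, and a difference is the PyMT Ets2-null minus the PyMT Ets2-present level, so that -1 is 2-fold lower and 1 is 2-fold higher without Ets2. A gene was represented by its brightest probe set and kept when at least 1 of the 4 arrays reached 4.63, the 40th percentile of the table and here called the filter level, which kept 8687 of 12394 genes. Of these, 82 genes (0.944%) had a level at least 4-fold lower in Ets2-null fibroblasts and 60 (0.691%) a level at least 4-fold higher, while 675 (7.77%) and 664 (7.64%) passed 2-fold in these directions. The 2-fold shares are the background for the counts of list members given below. With the arrays scaled to a common median, the 4-fold counts were 67 lower and 87 higher, so the balance between both directions depends on the scaling. In normal fibroblasts the corresponding Ets2 difference, which shares no array with this one, had 7 genes (0.0806%) lower by 4-fold or more and 25 (0.288%) higher by as much, and 2.41% and 3.02% of genes passed 2-fold. The median difference of all kept genes was 0.02. Most large differences lay at low levels: 41.4% of the 879 genes with a mean PyMT level under the filter level were at least 2-fold apart, against 2.84% of the 2814 genes with a mean of 9 or more. Where 4 levels follow each other, they are those of normal fibroblasts with and then without Ets2 and of PyMT fibroblasts with and then without Ets2. The level of Ets2 itself was 11.86, 11.89, 11.21 and 11.22. Its probe set was thus bright on all 4 arrays and did not separate the genotypes, and where it lies relative to the recombined exons is not given in the sources used here, so it does not check the deletion.

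**Figure D1:**
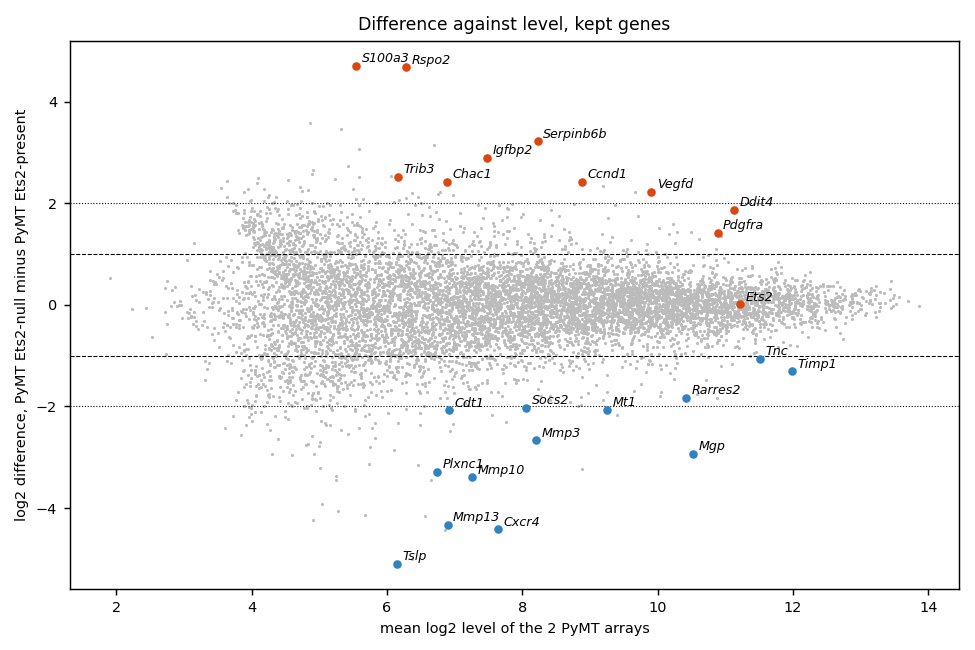
Log2 difference between PyMT Ets2-null and PyMT Ets2-present fibroblasts (vertical) against the mean log2 level of these 2 arrays (horizontal) for the 8687 kept genes, 1 array a side. Dashed and dotted lines mark 2-fold and 4-fold; labelled genes are named in the text, and the spread narrows toward high levels, where Mgp, Timp1 and Tnc lie below the cloud and Ets2 lies at 0.01.

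The interstitial metalloproteinases were among the genes with the lowest levels relative to PyMT Ets2-present fibroblasts. Mmp13, a collagenase, had levels of 5.24 and 6.16 in normal fibroblasts with and without Ets2, and of 9.06 and 4.73 in PyMT fibroblasts with and without it, a difference of -4.33. The stromelysin Mmp10 was at 5.79, 6.11, 8.95 and 5.56 in the same order (-3.39), and the stromelysin Mmp3 at 8.10, 8.98, 9.54 and 6.87 (-2.67). For all 3 genes the PyMT Ets2-present array was the highest and the PyMT Ets2-null array the lowest of the 4. Mmp9, a gelatinase, was at 7.74 in PyMT Ets2-present and at 3.60, under the filter level, in PyMT Ets2-null fibroblasts, and its next brightest probe set differed by -1.02 where the brightest differed by -4.14. Of the 13 metalloproteinases kept, 9 were lower and 4 higher, with a list median of -0.30. The 2 at least 2-fold higher were Mmp11, or stromelysin 3 (1.13), and the membrane-type enzyme Mmp16 (1.57, and 1.64 in its next brightest probe set). Among the inhibitors, Timp1 was at 12.64 in PyMT fibroblasts with Ets2 and 11.33 in those without, a difference of -1.31.

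Mmp3, Mmp10 and Mmp13 lie near each other on chromosome 9, and the 250 bases before the transcription start of each (RefSeq, GRCm38.p6, plus strand) are shown because the levels of these 3 genes were lower together. The windows are chr9:7445572-7445821 for Mmp3, chr9:7502092-7502341 for Mmp10 and chr9:7272264-7272513 for Mmp13. Capitals mark the AP-1 site TGACTCA and the ETS-type sequences AGGAAG and CGGAAG, each on either strand.
Mmp3: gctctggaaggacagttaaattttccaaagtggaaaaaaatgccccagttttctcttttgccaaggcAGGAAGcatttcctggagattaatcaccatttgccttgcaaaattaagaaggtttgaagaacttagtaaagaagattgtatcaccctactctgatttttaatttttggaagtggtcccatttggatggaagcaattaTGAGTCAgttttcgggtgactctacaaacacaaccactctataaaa
Mmp10: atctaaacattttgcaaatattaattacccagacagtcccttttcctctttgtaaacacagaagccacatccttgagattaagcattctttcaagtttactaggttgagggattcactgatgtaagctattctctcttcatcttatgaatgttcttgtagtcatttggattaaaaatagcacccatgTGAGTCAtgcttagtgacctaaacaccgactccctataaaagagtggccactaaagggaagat
Mmp13: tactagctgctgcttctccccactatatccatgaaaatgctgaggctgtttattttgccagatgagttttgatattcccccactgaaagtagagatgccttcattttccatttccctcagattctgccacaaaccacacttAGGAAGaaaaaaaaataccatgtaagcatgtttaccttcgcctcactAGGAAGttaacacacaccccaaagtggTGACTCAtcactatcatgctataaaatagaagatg
Each holds TGACTCA once, beginning 46 (Mmp3), 63 (Mmp10) and 35 (Mmp13) bases before the start. AGGAAG begins 183 bases before the start in Mmp3 and 62 and 109 bases before it in Mmp13, and Mmp10 has neither ETS-type sequence in this window. In windows from 250 bases before to 50 after the start, TGACTCA was found in 6 of 61 genes (9.84%) at least 4-fold lower, in 2 of 48 (4.17%) at least 4-fold higher and in 342 of 7061 (4.84%) of all kept genes with a promoter in the table. Either ETS-type sequence was found in 29 (47.5%), 19 (39.6%) and 4169 (59.0%) of them. Mmp3, Mmp10 and Mmp13 are themselves among the 6 lower genes with TGACTCA, so that share is not independent of the genes shown. All these are matches of letters in a short window and say nothing of binding.

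The 4 arrays together show where a difference arose. Of the 82 genes at least 4-fold lower, 34 were at least 2-fold above both normal arrays in PyMT Ets2-present fibroblasts while the PyMT Ets2-null level was not 2-fold below them, and 31 were at least 2-fold below both normal arrays in PyMT Ets2-null fibroblasts alone. A further 10 did both and 7 neither. Cxcr4, the receptor of the chemokine Cxcl12, is of the first kind, with levels of 6.64, 5.65, 9.85 and 5.43 on the 4 arrays. The cytokine Tslp stood at 8.70 in PyMT Ets2-present fibroblasts and between 3.61 and 4.10, under the filter level, on the other 3 arrays, and Serpinb2, an inhibitor of plasminogen activators, at 8.88 against 3.81 to 4.10. Mgp, an inhibitor of calcification that binds BMP proteins, is of the second kind. Its level was 11.53, 12.21 and 11.99 on the first 3 arrays and 9.06 in PyMT Ets2-null fibroblasts (-2.93), all far above the filter level. The metal-binding Mt1 was likewise at 10.28 or more on 3 arrays and at 8.22 in PyMT Ets2-null fibroblasts (-2.07).

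Of the 60 genes at least 4-fold higher, 34 were at least 2-fold above both normal arrays in PyMT Ets2-null fibroblasts alone, 17 were at least 2-fold below them in PyMT Ets2-present fibroblasts alone, 1 did both and 8 neither. Igfbp2, a carrier of insulin-like growth factors, is of the first kind, at 6.29, 4.38, 6.03 and 8.92 on the 4 arrays (2.89). Vegfd, a growth factor of lymphatic vessels, is of the second kind, at 11.07, 11.55, 8.79 and 11.01 in the same order (2.22, and 2.08 and 1.05 in 2 other probe sets). Rspo2, a secreted enhancer of Wnt signalling, was at 6.90, 6.26, 3.94 and 8.62. The calcium-binding S100a3, with the highest difference of all kept genes (4.71), was at 3.14, 7.40, 3.19 and 7.90. Its difference in normal fibroblasts was 4.26. Both Ets2-present levels of S100a3 were under the filter level, and raising left 3.26 in PyMT and 2.765 in normal fibroblasts. An array under the filter level took part in 56 of the 82 lower and 40 of the 60 higher genes, and the size of those differences rests on signal near background.

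**Figure D2:**
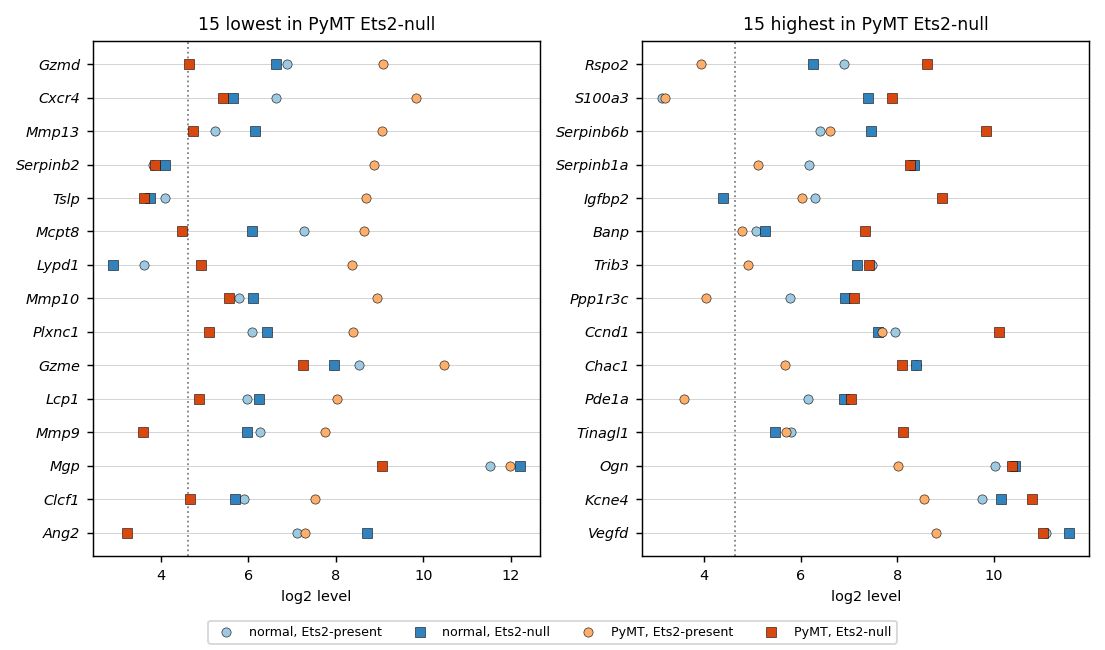
Log2 level on each of the 4 arrays (horizontal) for the 15 genes lowest (left) and the 15 highest (right) in PyMT Ets2-null relative to PyMT Ets2-present fibroblasts, after values under the filter level (dotted line) were raised to it for the ranking. For Tslp and Serpinb2 the PyMT Ets2-present point stands alone to the right, for Mgp the PyMT Ets2-null point stands alone to the left, and for Igfbp2 and Ccnd1 it stands alone to the right.

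Genes of DNA replication were lower in 20 of 21 kept members (median -0.71), against 48.7% of all kept genes lower, and 5 were at least 2-fold lower. Cdc6, which loads the replicative helicase onto DNA, was at 6.24, 6.69, 6.81 and 4.66 on the 4 arrays (-2.15). Its loading partner Cdt1 was at 8.18, 8.18, 7.95 and 5.87 (-2.08, and -1.71 in its other probe set). The helicase subunit Mcm2 was at 8.11 in PyMT fibroblasts with Ets2 and 6.49 in those without (-1.62, and -0.68 in its other probe set). For these 3 genes the PyMT Ets2-null array lay below the other 3, which spanned 0.24 to 0.57 on the log2 scale. Mcm10 (-1.97) and the clamp loader subunit Rfc3 (-1.09) were also at least 2-fold lower. The Mcm10 difference was -1.22 once its PyMT Ets2-null level of 3.88 was raised to the filter level, and -0.905 in its other probe set. All 6 subunits of the Mcm2 to Mcm7 helicase were lower, with differences from -1.62 to -0.35. The exception was Tyms, thymidylate synthase (0.97), which was also higher in normal Ets2-null fibroblasts (1.39). In normal fibroblasts 5 of the 21 replication genes were lower and 16 higher, with a median of 0.09, where 52.7% of all kept genes were lower and 47.1% higher.

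The mitosis genes went the other way: 19 of 25 were higher (median 0.24), against 51.3% of all kept genes higher, and 3 were at least 2-fold higher. The kinesin Kif20a was at 7.78, 8.10, 5.57 and 7.16 on the 4 arrays (1.59), cyclin Ccnb2 at 8.54, 8.91, 6.26 and 7.35 (1.08), and the spindle checkpoint kinase Bub1b at 7.06, 6.89, 4.69 and 5.73 (1.04). Both PyMT arrays thus lay below both normal arrays for these 3 genes. Of the G1 regulators, Ccnd1, the cyclin D1 that growth factor signalling induces, stood at 7.94, 7.60, 7.68 and 10.10 (2.42), with 1.92 and 1.65 in its 2 other probe sets. The CDK inhibitors Cdkn2a (1.96, with the PyMT Ets2-present level of 3.60 under the filter level) and Cdkn2d (1.18) were higher too. Cyclin E2, or Ccne2, which drives entry into S phase, was at 8.51 in PyMT fibroblasts with Ets2 and 6.98 in those without (-1.53). The lower replication and higher mitosis medians kept their direction under all 8 alternative settings, from -0.80 to -0.60 and from 0.19 to 0.35.

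**Figure D3:**
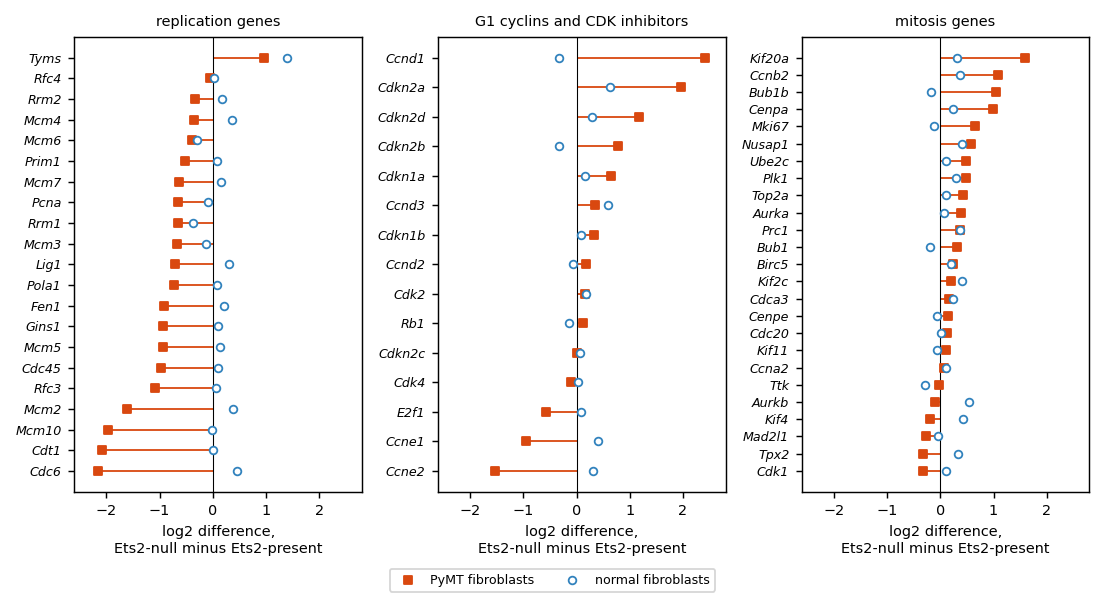
Log2 difference, Ets2-null minus Ets2-present, of each kept replication, G1 and mitosis gene in PyMT fibroblasts (filled squares, lines from 0) and in normal fibroblasts (open circles), 1 array per group. In PyMT fibroblasts 20 of 21 replication genes lie left of 0 and 19 of 25 mitosis genes right of it; Ccnd1 lies at 2.42 and Ccne2 at -1.53.

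The promoters of the replication genes were also searched for short sequences that the grouping did not use. TTCCCGC, a core of the sites of E2F factors, which activate replication genes at the start of S phase, was found on either strand in 9 of 19 replication gene windows of 250 bases before to 50 after the start (47.4%), in 0 of 21 mitosis gene windows and in 693 of 7061 (9.81%) of all kept genes with a window. It was thus absent from most replication gene windows, and it was chosen after the values were seen. The ETS-type CGGAAG was found in 12 replication (63.2%) and 7 mitosis gene windows (33.3%), against 35.6% of all, and either ETS-type sequence in 15 (78.9%) and 10 (47.6%), against 59.0% of all. TGACTCA was found in 0 windows of either list. The 250 bases before the start of the 3 lowest replication genes that hold it there are shown, with it in capitals. They are Cdc6 (chr11:98907901-98908150, plus strand), Pola1, a DNA polymerase subunit that differed by -0.73 (chrX:93632156-93632405, minus strand), and Rrm1, a ribonucleotide reductase subunit that differed by -0.66 (chr7:102441445-102441694, plus strand), all from RefSeq, GRCm38.p6.
Cdc6: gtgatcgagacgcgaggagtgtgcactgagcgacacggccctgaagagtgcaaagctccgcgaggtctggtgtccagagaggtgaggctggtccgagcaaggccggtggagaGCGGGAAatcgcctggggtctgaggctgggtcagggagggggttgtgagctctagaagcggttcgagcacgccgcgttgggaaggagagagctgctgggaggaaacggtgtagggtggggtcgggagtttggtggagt
Pola1: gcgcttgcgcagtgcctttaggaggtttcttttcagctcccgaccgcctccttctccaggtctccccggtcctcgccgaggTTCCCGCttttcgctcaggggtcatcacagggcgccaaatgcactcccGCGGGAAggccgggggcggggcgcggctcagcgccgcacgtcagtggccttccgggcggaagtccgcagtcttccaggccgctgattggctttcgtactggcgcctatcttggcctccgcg
Rrm1: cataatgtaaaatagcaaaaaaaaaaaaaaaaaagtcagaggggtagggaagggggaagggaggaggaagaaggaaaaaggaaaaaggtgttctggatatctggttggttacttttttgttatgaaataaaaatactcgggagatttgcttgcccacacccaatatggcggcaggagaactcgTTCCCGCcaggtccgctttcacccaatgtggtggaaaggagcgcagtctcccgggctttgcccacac
The match begins 138 bases before the start in Cdc6, 121 and 169 bases before it in Pola1 and 67 bases before it in Rrm1.

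Secreted growth factors differed in both directions. The EGF receptor ligand Hbegf was at 8.35, 7.92, 9.66 and 7.74 on the 4 arrays (-1.91, and -1.83 in its other probe set). Ereg, another ligand of that receptor, was at 10.07, 10.27, 11.45 and 9.97 (-1.47), while Btc, also a ligand of it, was higher (1.31). For Hbegf and Ereg the PyMT Ets2-present array stood above the other 3, by 1.17 in Ereg and by more in Hbegf. Hgf, the ligand of the Met receptor, was at 6.78, 5.86, 5.92 and 7.60 (1.68, and 1.47 in its other probe set). The PDGF receptor Pdgfra was at 11.82, 11.94, 10.18 and 11.59 (1.41, and 2.56 in its other probe set), so that only PyMT Ets2-present fibroblasts stood apart. Fgf18 (-1.39) and Fgf13 (-2.34, with 3.05 in PyMT Ets2-null fibroblasts under the filter level) were lower and Fgf9 (1.32) higher. Of the 22 growth factors and receptors of these families, 11 were lower and 11 higher.

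Ligands, receptors and antagonists of the TGF-beta superfamily included 7 genes at least 2-fold lower among 22 (31.8%, against 7.77% of all kept genes), and 1 at least 2-fold higher (4.55%, against 7.64%). Over the whole list 14 were lower and 8 higher, with a median of -0.15. Inhba, the activin A subunit, was at 10.05, 9.36, 11.45 and 9.71 on the 4 arrays (-1.75). Grem1, a BMP antagonist, was at 9.13, 9.36, 7.70 and 6.11 (-1.59), and the decoy receptor Bambi at 5.92, 6.56, 6.32 and 4.92 (-1.41). Tgfb1 differed by -2.65, or by -1.08 once the PyMT Ets2-null level of 3.07 was raised to the filter level. The gene at least 2-fold higher was Bmp6 (1.15, or 0.22 after raising). Of their response genes, Id2 (-1.71, and -1.63 in its other probe set), Id4 (-1.23) and Smad7 (-1.11) were at least 2-fold lower, among 9 lower and 5 higher of 14 (median -0.21). Other probe sets of Id4 differed by -1.41 and -0.23.

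In the Wnt pathway, Dkk2, an antagonist, was at 10.83, 10.16, 6.36 and 8.33 on the 4 arrays (1.97), and the secreted Frizzled-related protein Sfrp2 at 10.25, 10.53, 6.64 and 5.42 (-1.22). Both were thus lower in either PyMT array than in either normal array, while the Ets2 difference had opposite directions. The ligands Wnt4 (5.15 and 2.86 in PyMT Ets2-present and Ets2-null) and Wnt5b (5.06 and 2.86) were close to the filter level where they were highest, and raising low values left differences of -0.52 and -0.43. The antagonist Frzb was higher by 1.49, or by 1.25 after raising. Over the 17 Wnt genes kept, 7 were lower and 10 higher (median 0.40).

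Cytokines and chemokines gave no common direction. The IL6-family cytokines Clcf1 and Il11 were lower: Il11 was at 9.24, 9.40, 10.93 and 9.14 on the 4 arrays in the order used above (-1.79), and Clcf1 at 5.91, 5.71, 7.53 and 4.67 (-2.86), with -0.27 and -2.08 in its 2 other probe sets. Il6 itself was at 8.28, 8.73, 8.05 and 9.32 (1.27), and Ctf1, of the same family (1.20), and the interleukin 1 antagonist Il1rn (1.21, and 1.33 and 1.66 in its 2 other probe sets) were higher. The chemokine Ccl9 was at 9.11, 8.31, 8.84 and 10.58 (1.74, and 1.52 in its other probe set), whereas Ccl8, a chemokine of monocytes, was at 9.87, 10.87, 10.86 and 9.71 (-1.15). Cxcl12, the ligand of Cxcr4, was at 9.20, 10.30, 7.33 and 5.80 (-1.53), but its other probe set differed by 0.28. Ackr3, the second receptor of Cxcl12, was higher (1.28), in the opposite direction to Cxcr4. Of 11 CC chemokines 4 were lower and 7 higher, and of 9 CXC chemokines 5 were lower and 4 higher.

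Among matrix genes, the small leucine-rich proteoglycans Aspn, Omd and Ogn, which lie side by side on chromosome 13, were higher together. Ogn was at 10.01, 10.43, 8.02 and 10.36 on the 4 arrays (2.34, and 2.06 in its other probe set). Aspn was at 8.84, 8.97, 7.11 and 8.84 (1.73, and 1.78 in its other probe set), and Omd at 5.12, 5.62, 3.58 and 6.24 (2.66, or 1.60 after raising). In Ogn and Aspn the PyMT Ets2-null level equalled that of normal fibroblasts to within 0.35, and the PyMT Ets2-present level was the lowest. Fmod, which binds collagen fibrils, was lower instead (-1.16), with all 6 of its probe sets between -1.26 and -1.04. The median of the 8 proteoglycans was 0.29, but -0.04 with the mean over probe sets and -0.27 without probe sets that may match several transcripts, so the list has no settled direction.

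Of the adhesive glycoproteins, Spon1, or spondin 1, was at 10.44, 10.27, 11.79 and 9.95 (-1.83, and -3.68 in its other probe set), and tenascin C, Tnc, at 12.08, 11.97, 12.03 and 10.98 (-1.06). Among 25 such genes 11 were lower and 14 higher (median 0.06), against 48.7% and 51.3% of all kept genes. Spon1, Tnc and Mgp were at least 2-fold lower (12%, against 7.77%) and 0 were at least 2-fold higher (against 7.64%). The fibrillar collagens were higher in 6 of 7 (median 0.29), with Col11a1 at 1.02, and the exception was Col5a3, at 7.13 in PyMT fibroblasts with Ets2 and 4.51 in those without (-2.62). The aggrecan-degrading protease Adamts5 was at 8.60, 7.35, 9.25 and 10.77 (1.52, and 1.44 in its other probe set). Of 12 ADAM and ADAMTS proteases 5 were lower and 7 higher. At least 2-fold higher were 3 (25%, against 7.64%) and 0 were at least 2-fold lower.

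Single genes of stress signalling were among the highest, although the list of the integrated stress response had a median of 0.10. In this list of the ATF4 pathway, 16 of 25 genes were higher and 9 lower, against 51.3% and 48.7% of all kept genes. At least 2-fold higher were 6 (24%, against 7.64%) and at least 2-fold lower 1 (4%, against 7.77%). Trib3, a pseudokinase of that pathway, was at 7.47, 7.16, 4.90 and 7.42 on the 4 arrays (2.52, and 1.19 in its other probe set). Chac1, which degrades glutathione, was at 8.38, 8.38, 5.68 and 8.10 (2.42), Ddit3, the factor CHOP, at 7.78, 7.46, 6.67 and 8.64 (1.97), and Ddit4, an inhibitor of mTORC1, at 11.45, 11.60, 10.19 and 12.06 (1.87). In each the PyMT Ets2-present array was the lowest of the 4. Nupr1 (1.44) and Sesn2 (1.73, or 1.05 after raising) were higher in both of their probe sets, at 1.51 and 1.59 in the others. Of the 10 regulators in the list, a subgroup chosen after the values were seen, 10 were higher and 6 at least 2-fold higher. These counts depend on that choice and are no evidence of a direction. Atf4 itself was level (0.10). Of the 10 amino acid enzymes and carriers, also grouped afterwards, 7 were lower, led by the cystine carrier Slc7a11 (-1.65), and chaperones of the unfolded protein response had a median of 0.05.

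Interferon-stimulated genes were higher in 20 of 22 (median 0.51, and 0.29 to 0.62 under the 8 alternatives), with 6 at least 2-fold higher (27.3%). Of all kept genes, 51.3% were higher and 7.64% at least 2-fold higher. Ifit1, which binds viral RNA, was at 4.80, 5.10, 5.23 and 7.34 on the 4 arrays (2.11). Ifit3 was at 4.20, 4.56, 4.05 and 6.79 (2.74, or 2.15 after raising), the transcription factor Irf1 at 6.40, 6.12, 4.59 and 6.38 (1.79), and the GTPase Irgm1 at 7.12, 6.95, 7.39 and 8.78 (1.38). PyMT Ets2-null fibroblasts were thus the highest for Ifit1, Ifit3 and Irgm1, but level with normal Ets2-present fibroblasts for Irf1. Antigen processing genes were higher in 10 of 11 (median 0.22), with 0 at least 2-fold higher. In normal fibroblasts 10 of the 22 interferon-stimulated genes were lower and 12 higher.

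The hypoxia and glycolysis list was higher in 23 of 29 (median 0.35), led by Aldoc (2.32, or 1.24 after raising), the pyruvate dehydrogenase kinase Pdk1 (7.77 in PyMT fibroblasts with Ets2 and 9.76 without, a difference of 1.99, and 1.87 in its other probe set), Adm (1.86) and Ndrg1 (1.72). At least 2-fold higher were 5 of these 29 (17.2%, against 7.64% of all kept genes). Of all kept genes, 51.3% were higher and 48.7% lower. Genes of oxidative phosphorylation were lower in 26 of 34 (median -0.25). At least 2-fold lower were 2 (5.88%, below the 7.77% of all kept genes), Cyc1, of complex III (-1.29), and Sdhb, of complex II (-1.07). Cholesterol synthesis genes were lower in 15 of 19 (median -0.32), and 3 (15.8%) were at least 2-fold lower. These were the kinase Mvk (-1.20, and -0.73 in its other probe set), Msmo1 (-1.08) and Hsd17b7 (-1.03). Another probe set of Hsd17b7 differed by 1.26 and the mean over its probe sets by 0.11. Cytosolic ribosomal protein genes, a reference group, were lower in 17 of 22 (median -0.15). These small medians moved toward 0 when arrays were scaled to a common median, to -0.14 for oxidative phosphorylation, -0.21 for cholesterol synthesis and -0.05 for ribosomal proteins, since that scaling moved the median of all genes from 0.02 to 0.13.

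**Figure D4:**
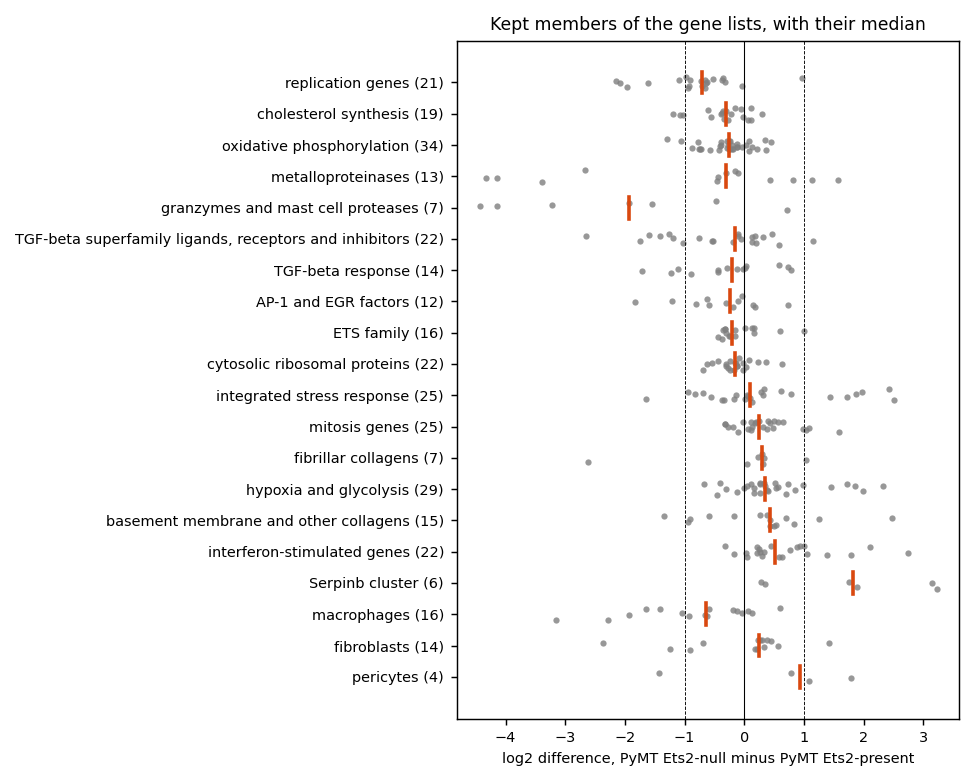
Log2 difference between PyMT Ets2-null and PyMT Ets2-present fibroblasts (horizontal) for the kept members of 20 gene lists, with the number kept in parentheses. Each grey point is a gene, jittered vertically, the orange bar is the median of the list, and dashed lines mark 2-fold; replication genes lie almost wholly left of 0, interferon-stimulated genes almost wholly right of it, and the stress response list has its bar at 0.10 with 6 points beyond 1.

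None of the other 15 ETS family genes kept was 2-fold lower, and the median of all 16 was -0.20. Fosl1, the AP-1 subunit Fra-1, was at 6.73, 6.36, 7.69 and 5.86 on the 4 arrays (-1.83), and Maff, a small Maf factor, at 8.32, 8.34, 10.08 and 8.86 (-1.22). Of 12 AP-1 and EGR genes 9 were lower and 3 higher (median -0.24). The MAP kinase phosphatase Dusp10, which acts on p38 and JNK, was at 8.48, 9.16, 9.85 and 7.88 (-1.97, and -1.23 in its other probe set), and Spry1, a feedback inhibitor of receptor signalling, was higher (1.07).

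Developmental transcription factors differed widely. Prrx2, a homeobox factor of mesenchyme, was at 6.45, 7.12, 6.98 and 4.67 on the 4 arrays in the same order (-2.32), and Hoxc13 at 7.87, 6.52, 8.90 and 6.60 (-2.30). Snai1 (-1.88) was lower. Sp7, a factor of bone-forming cells, differed by -3.38, or by -2.31 after raising, and Mycn by -2.46, or by -1.92. Sox9, a factor of cartilage cells, was at 8.04 in PyMT fibroblasts with Ets2 and 9.38 in those without (1.34, and 0.54 in its other probe set). Of 27 such factors, 6 were lower by 2-fold or more and 5 higher by as much.

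Guidance molecules and vasoactive peptides were further groups with members far apart. The semaphorin receptor Plxnc1 was at 6.10, 6.43, 8.38 and 5.09 (-3.29), with -4.35, -2.40 and -1.55 in its 3 other probe sets, and Sema7a, its ligand, at 6.51, 5.88, 8.03 and 6.38 (-1.66). Receptor and ligand had the same pattern, with PyMT Ets2-present fibroblasts the highest. Sema3a was higher (1.52), with 0.96 and 0.01 in its 2 other probe sets. Calcrl, the receptor of adrenomedullin, was at 6.72, 5.34, 7.65 and 9.21 (1.57), and Npr3, which clears natriuretic peptides, at 10.06, 9.23, 9.78 and 11.20 (1.42, and 1.41 and 1.70 in its 2 other probe sets), while Nppb, the B-type natriuretic peptide, was at 5.01, 5.08, 7.32 and 4.99 (-2.33). The steroid-metabolizing Akr1c18 and Akr1c14 differed in opposite directions, at 7.00 and 3.06 in PyMT Ets2-present and 3.07 and 6.65 in PyMT Ets2-null fibroblasts.

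All 14 fibroblast markers measured were above the filter level on each array, with a median level of 12.20 to 12.54, and S100a4, whose promoter drives the Cre transgene, was at 12.35 to 12.97. Of these 14, 4 were lower and 10 higher (median 0.25), against 48.7% and 51.3% of all kept genes. Fap (-2.37), a serine protease of activated fibroblasts, and Thy1 (-1.25) were at least 2-fold lower, and Pdgfra (1.41) at least 2-fold higher. Col1a1 (0.29) and Vim (0.26) were near level. None of the 9 T and NK cell or 4 B cell markers reached the filter level on any array. Of 20 macrophage markers measured, 9, 11, 14 and 11 reached it on the 4 arrays, with a median level of 4.59, 4.70, 5.56 and 4.87. Csf1r, the receptor of the macrophage growth factor, was at 6.95, 6.54, 8.12 and 6.19 (-1.93, and -1.89 and -1.65 in its 2 other probe sets), and the complement subunit C1qb at 4.16, 3.91, 7.21 and 5.79 (-1.42), but the lysozyme gene Lyz2 was at 7.39, 7.11, 9.13 and 9.09. Lyz1 (-0.13), Laptm5 (-0.19) and Fcer1g (0.05) were near level as well. Of the 16 macrophage markers kept, 13 were lower and 3 higher (median -0.64), against 48.7% and 51.3% of all kept genes. At least 2-fold lower were 6 (37.5%, against 7.77%). The part of macrophage markers in the lower metalloproteinases and cytokines was not tested. In bulk cultures, fewer cells of a type and less RNA per cell cannot be told apart. Lcp1, an actin-bundling protein of leukocytes, differed by -3.16 in its brightest probe set and by 0.68 in the other.

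The 14 epithelial markers had a median level under the filter level on each array (3.21, 3.13, 3.31 and 4.37), and 4, 3, 3 and 5 of them reached that level. The keratins differed among themselves. Krt18 was at 8.05, 6.72, 4.23 and 4.49, highest in normal fibroblasts, Krt19 at 4.98, 4.39, 7.36 and 7.21, highest in PyMT fibroblasts, and Krt5 at 5.53 and 5.24 in PyMT fibroblasts with and without Ets2. Epcam (5.10) and Krt14 (4.85) passed the filter level in PyMT Ets2-null fibroblasts alone, but the 2 other probe sets of Krt14 were at 2.35 and 2.65 there. The part of epithelial markers in the differences was not tested. Of the pericyte markers, the adhesion molecule Mcam was at 6.18, 5.16, 7.12 and 8.90 (1.78) and the signalling regulator Rgs5 at 4.91, 4.23, 5.28 and 6.36 (1.08, and 1.51 and 0.92 in its 2 other probe sets), whereas Cspg4 was lower (-1.43). Myh11, the smooth muscle myosin, was at 6.92, 7.04, 7.62 and 9.01 (1.39), while Acta2 (-0.04) and Tagln (-0.27) were near level. The PyMT Ets2-null array also differed in its controls: 18S ribosomal RNA was higher by 0.98 to 2.46 than on the PyMT Ets2-present array, and the bacterial bio spike-in controls by 0.28 to 0.87, while the 3 Gapdh control probe sets differed by -0.13 to 0.04. The part of these in the differences was not tested.

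A second probe set of the same gene is the only repeat measurement within these arrays, and it shares the RNA and the hybridization. In 3378 genes with at least 2 kept probe sets, the differences of the 2 brightest disagreed with an SD of 0.68, and of 0.38 in the 1882 genes with both at higher levels. Every kept probe set was at least 2-fold lower in 56 genes and at least 2-fold higher in 45, while in 33 genes 2 probe sets were at least 2-fold apart in opposite directions. A second probe set was kept for 14 of the 82 genes at least 4-fold lower, of which 9 had all probe sets at least 2-fold lower and 2 had a probe set on the other side of 0. For the 60 higher genes the counts were 7, 5 and 1.

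Genes whose probe sets gave the same direction include the granzyme Gzmd (-4.44 and -4.37), the membrane protein Itm2a (-3.13 and -2.71), the chemokine receptor Cxcr6 (-2.75 and -1.62), the death receptor Tnfrsf21 (-2.16 and -1.82) and Socs2, an inhibitor of growth hormone signalling (-2.03 and -1.84). In PyMT Ets2-null fibroblasts both probe sets of Itm2a and of Cxcr6 were under the filter level. After raising, their brightest differed by -2.665 and -1.55. The dimmer probe sets of Gzmd (4.47) and Tnfrsf21 (3.41) were under that level there too. Gzmd and Gzme are close paralogs whose probes may share targets, which was not tested. Serpinb1a, an inhibitor of neutrophil proteases (3.14 and 3.10), and Medag, a factor of fat cell development (1.49 and 1.56), were higher in both. Opposite directions were given by the transcription factor Sp4 (-1.22 and 1.63), the guanine nucleotide exchange factor Sos1 (-1.26 and 1.26) and Grhl2, a factor of epithelium (-1.71 and 2.16). The lipase inhibitor Angptl4 was higher by 2.17 in its brightest probe set and differed by -0.10 in the other.

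**Figure D5:**
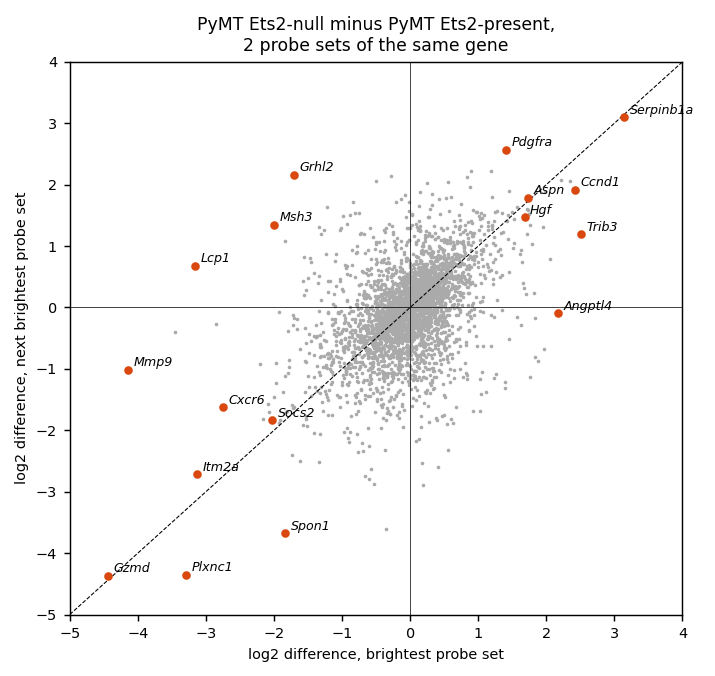
Log2 difference between PyMT Ets2-null and PyMT Ets2-present fibroblasts in the brightest (horizontal) and next brightest (vertical) kept probe set of each of 3378 genes. Points on the dashed line agree; Gzmd, Serpinb1a and Aspn lie close to it, while Lcp1 (-3.16 and 0.68), Mmp9 (-4.14 and -1.02), Grhl2 and Angptl4 lie far from it.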

How the data were processed

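Total RNA of cultured mammary fibroblasts was hybridised to Affymetrix mouse expression arrays, 1 per group. The authors deposited log2 levels computed by RMA (version not given in the sources used here), which corrects the background, normalizes between arrays and summarizes probe sets. Groups were taken from the sample labels. The platform annotation named 1 gene for 20393 of 22690 probe sets, several for 691 and none for 1606, and 20364 were matched to RefSeq (GRCm38.p6) by Entrez ID. The probe set with the highest mean over the 4 arrays stood for its gene, which was kept if 1 array reached the 40th percentile of all values (4.63). Differences were subtractions of 2 arrays, computed with pandas 2.3.3 and tested on simulated data with planted shifts. With 1 array per group no test across genes was run, and array number limits the precision. An additive model over the 4 arrays would test another quantity and was not used. The genes and lists were chosen with earlier results of these data known. The set of 267 named genes began with the 15 lowest and 15 highest after raising values under the filter level to it. It also held up to 4 members per list and direction at least 2-fold apart, Ets2 and the RT-PCR genes of the study. Cell type markers and genes whose probe sets agreed or opposed each other completed it. Not all genes of this set are printed in the text, and other list members were named after their values were seen. The metalloproteinase, Serpinb, granzyme, cytokine, complement and S100 lists include RT-PCR genes of the study, picked on these samples. The macrophage and mast cell markers do so too. All of these are no independent evidence of a direction. Alternatives were other filters, other summaries of probe sets, cyclic loess (limma 3.58.1) and median scaling.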

Additional observations from a re-analysis of the deposited data

Results flagged for a closer look

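For 15 of the 267 named genes the Ets2 difference was at least 2-fold in PyMT and in normal fibroblasts but in opposite directions. The same held after values under the filter level were raised to it. Many named genes were chosen for a large PyMT difference, so this count is no share of all kept genes. Without raising, 9 of the 82 genes at least 4-fold lower in PyMT were at least 2-fold lower in normal fibroblasts, and 5 at least 2-fold higher. Of the 60 at least 4-fold higher, 6 were at least 2-fold higher there and 5 at least 2-fold lower. Each side is 1 array against 1 array, so the difference between the PyMT and the normal value was not tested. The values in parentheses are log2 differences, Ets2-null minus Ets2-present, first in PyMT and then in normal fibroblasts.

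Lower without Ets2 in PyMT and higher in normal fibroblasts were Ang2, a ribonuclease of the angiogenin family (-4.07 and 1.59), Saa3, an acute-phase protein (-2.49 and 2.02), Ccl5, a chemokine of T cells and monocytes (-2.02 and 1.20), Cxcl12, the ligand of Cxcr4 (-1.53 and 1.11), Igfbp3, a carrier of insulin-like growth factors (-1.27 and 1.26), and Abi3bp, a matrix protein (-1.58 and 1.398). The other probe set of Cxcl12 differed by 0.28 in PyMT fibroblasts, and both probe sets of Abi3bp were lower there (-1.58 and -1.91).

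Higher in PyMT and lower in normal fibroblasts were Igfbp2, another carrier of insulin-like growth factors (2.89 and -1.91), Aldh1a7, an aldehyde dehydrogenase (1.96 and -1.48), Mcam, an adhesion molecule of pericytes (1.78 and -1.02), Sesn2, a stress-induced regulator of mTORC1 (1.73 and -1.29), Calcrl, the receptor of adrenomedullin (1.57 and -1.38), Adamts5, an aggrecan-degrading protease (1.52 and -1.25), Eya4, a transcriptional coactivator (1.38 and -1.97), Col8a1, a short-chain collagen (1.24 and -1.82) and Ppbp, a CXC chemokine (1.01 and -1.13). Both probe sets of Sesn2 and of Adamts5 were higher in PyMT fibroblasts. In normal fibroblasts the other probe set of Sesn2 differed by 0.05, so its opposite direction rests on 1 probe set, and the other of Adamts5 by -0.77, short of 2-fold. The carriers Igfbp2 and Igfbp3 thus had opposite directions to each other in PyMT as well as in normal fibroblasts.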

How the results depend on the processing

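No paired analysis was possible because each group has 1 array. No error could be given either, and signal near background limits the folds of low genes. The 82 and 60 genes at least 4-fold lower and higher became 41 and 28 under a filter at the 60th percentile, and 42 and 29 with values under the filter level raised to it. The 2-fold counts of 675 and 664 became 319 and 227 with the stricter filter, the higher genes 1029 with no filter and 376 with low values raised; the other counts stayed within 1.5 times. Among 47 list medians under 8 alternatives, 354 of 374 values moved by less than 0.25. A total of 28 values of 13 lists changed sign, 24 of them in lists with a median within 0.25 of 0. The 4 others were, with no filter, CXC chemokines (0.17) and chemokine receptors (0.48), and for the small leucine-rich proteoglycans the median was -0.042 with the mean over probe sets and -0.27 without _s_at and _x_at probe sets. Of 2014 values of 267 named genes, 1914 moved by less than 0.68, the SD between probe sets, and 30 changed sign. Of these, 15 belonged to genes at least 2-fold apart, all through the choice of probe set. With the mean over probe sets these were Bcr (-0.33), Cacna2d1 (-0.14), Pigo (-0.57), Sf3b4 (-0.18), Hsd17b7 (0.11) and Sp4 (0.20). Without _s_at and _x_at probe sets they were Angptl4 (-0.10), Hpgd (-0.17), Masp1 (-0.65), Rhbdd2 (-1.22), Zbed3 (-1.16), Sf3b4 (-1.42), Cubn (1.19), Rarres2 (0.17) and Shroom3 (1.08). Cyclic loess turned 0 list medians, and median scaling turned 4, among them HOX genes (from -0.12 to 0.03) and growth factors and receptors (from -0.003 to 0.10). Each turned 4 named genes that were level, such as Lyz2 (-0.04, then 0.008 and 0.06), and 0 genes at least 2-fold apart. The mean over probe sets also turned Coro1a (from 0.14 to -0.99).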

Other observations

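Along the chromosomes, 18 runs of at least 3 neighbouring kept genes were each at least 2-fold apart in the same direction in PyMT Ets2-null fibroblasts. The longest held 5 genes on chromosome 14, the mast cell proteases Mcpt1 (-1.54) and Mcpt8 (-4.15) and the granzymes Gzme (-3.22), Gzmd (-4.44) and Gzmc (-1.94). In normal fibroblasts these genes were lower without Ets2 as well, by smaller differences (-0.93, -1.175, -0.577, -0.25 and -1.17 in this order). The next run held 4 genes on chromosome 13, Serpinb1a (3.14), Serpinb6b (3.22), Serpinb9 (1.75) and Serpinb9b (1.89). Their differences in normal fibroblasts were 2.17, 1.06, 0.88 and -0.78. Shorter runs held Plxnc1 (-3.29), Cradd (-1.05), an adaptor of cell death, and Socs2 (-2.03) on chromosome 10, the cornified envelope genes Lce1f (-2.14), Lce1h (-1.19) and Lce1l (-1.88) on chromosome 3, Cacna2d1 (1.11), Hgf (1.68) and Sema3c (1.45) on chromosome 5, and Trim7 (1.25), Irgm1 (1.38) and the interferon-induced Ifi47 (1.39) on chromosome 11. Cacna2d1 changed sign with the mean over its probe sets. Members of a gene family can share probe targets, which was not tested. The runs were picked from the data, and the number expected from the 2-fold shares alone was not computed.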
